A study of Homo sapiens with 12 samples.

Results

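Interferon-stimulated genes are the genes that a cell switches on when interferon reaches its receptor, and they were followed here as a list of 39 human genes across siRNA silencing of TAZ and treatment with erastin. A member was measured where the array carried a probe set for it and no other gene, and the brightest one by its mean over the 12 arrays stood for the gene. This left 38 members among 11963 genes measured. RIGI is carried on the array under its older symbol DDX58, and STAT2 was not analysed here.

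Cells sense foreign RNA through RIGI and IFIH1 in the cytosol and TLR3 in endosomes, and these sensors activate IRF3 and IRF7, which switch on the interferon genes. Secreted type I interferon binds IFNAR1 and IFNAR2, and the kinases JAK1 and TYK2 then drive the complex ISGF3, of which IRF9 is the DNA-binding subunit, to the interferon-stimulated response element in promoters. Transfected short RNAs are one known trigger of this pathway, and the genes it switches on block viral entry, translation and RNA stability, raise antigen presentation and feed back on the pathway itself.

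The arrays held RNA of RCC4, a human cell line established from clear cell renal carcinoma. Cells in siTAZ groups received siRNA against TAZ, whose gene is WWTR1, and cells in siNT groups received a non-targeting siRNA, both for 2 days. They were then given 1 µM erastin, an inhibitor of cystine uptake that can drive cells into ferroptosis, or its DMSO vehicle for 7 h. The 4 groups were siTAZ with erastin, siNT with erastin, siTAZ with vehicle and siNT with vehicle, with 3 arrays each. Every array therefore came from transfected cells, and the values compare 2 siRNAs rather than transfection with its absence. The labels give no count or sequence of siRNAs, so a change with siTAZ is a change with that reagent in 1 cell line.

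The silenced gene followed the labels. WWTR1 had signals of 9.46, 9.31 and 9.26 (log2) on siTAZ vehicle arrays, against 12.33, 12.29 and 12.24 on siNT vehicle arrays, a change of -2.94 ± 0.07 (SE) on the log2 scale. The change under erastin was -3.12 ± 0.07. Over all genes the correlation of 2 arrays was 0.9962 to 0.9987 within a group and 0.9914 to 0.9983 between groups. Of the renal carcinoma markers, 9 of 10 had a mean signal above 5.75 (log2), and VIM reached 13.5 and PAX8 10.6. That limit is the 90th percentile of the mean signals of 31 marker genes of leukocytes, plasmacytoid dendritic cells, endothelial cells and erythroid cells, and it is called the dim limit below. None of 16 leukocyte markers passed it, and PTPRC, the pan-leukocyte phosphatase CD45, was among those under it. Most of these markers lie under the limit by its definition, so the count does not test whether such cells were present. The summed signal of the leukocyte markers was 8.57 to 8.75 (log2) on siTAZ erastin arrays, 8.51 to 8.81 on siNT erastin arrays, 8.59 to 8.66 on siTAZ vehicle arrays and 8.59 to 8.67 on siNT vehicle arrays. Of 4 plasmacytoid dendritic markers 1 had a mean above the limit, TCF4 (8.35), a transcription factor that many tissues express, and it rose with siTAZ by 1.10 ± 0.12 in vehicle and 1.21 ± 0.12 under erastin. The summed signal of these 4 was 9.15 to 9.22 on siTAZ erastin arrays, 8.22 to 8.49 on siNT erastin arrays, 9.16 to 9.24 on siTAZ vehicle arrays and 8.28 to 8.47 on siNT vehicle arrays, while LILRA4 (5.24), which is specific to these cells, was under the limit. The part of TCF4 in the results below was not tested. In RNA from whole cultures, fewer cells that express a gene and less RNA per cell cannot be told apart.

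The promoters of 5 members on which the results below turn are shown first, because most members share a short element there. The letters GAAANNGAAA (TTTCNNTTTC on the opposite strand) are the core of the interferon-stimulated response element. They were searched on both strands, overlaps counted, in windows from 250 bases before to 50 bases after each RefSeq gene start (GRCh38.p14). A window was found for 30 members, and 21 of them (70%) held the letters, against 4.38% of 27305 genes with a window and 3.57% of all 35116 windows. The 250 bases before the start follow for ISG15 and IFIT3, which fell with siTAZ, for HERC5, which rose with siTAZ under erastin, for IFITM1, which rose with erastin in siTAZ cells, and for IFI27, whose response to erastin had the largest difference between siTAZ and siNT cells, although that difference did not pass the test. Capitals mark the letters searched.
ISG15 (chr1:1013247-1013496, plus strand): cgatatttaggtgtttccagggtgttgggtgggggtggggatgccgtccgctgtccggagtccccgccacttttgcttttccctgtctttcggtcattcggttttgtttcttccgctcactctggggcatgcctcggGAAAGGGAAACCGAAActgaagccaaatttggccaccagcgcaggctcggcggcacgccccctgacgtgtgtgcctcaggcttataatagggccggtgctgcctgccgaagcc
IFIT3 (chr10:89327747-89327996, plus strand): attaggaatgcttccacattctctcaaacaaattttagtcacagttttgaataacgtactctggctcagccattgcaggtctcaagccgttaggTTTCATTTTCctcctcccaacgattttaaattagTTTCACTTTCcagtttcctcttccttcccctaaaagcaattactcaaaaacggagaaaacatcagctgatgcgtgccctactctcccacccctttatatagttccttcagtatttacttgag
HERC5 (chr4:88456869-88457118, plus strand): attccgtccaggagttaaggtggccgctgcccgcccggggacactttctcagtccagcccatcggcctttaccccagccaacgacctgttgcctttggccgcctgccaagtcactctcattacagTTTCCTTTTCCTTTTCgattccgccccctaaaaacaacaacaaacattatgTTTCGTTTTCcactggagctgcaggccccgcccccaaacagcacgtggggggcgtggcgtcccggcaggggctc
IFITM1 (chr11:313790-314039, plus strand): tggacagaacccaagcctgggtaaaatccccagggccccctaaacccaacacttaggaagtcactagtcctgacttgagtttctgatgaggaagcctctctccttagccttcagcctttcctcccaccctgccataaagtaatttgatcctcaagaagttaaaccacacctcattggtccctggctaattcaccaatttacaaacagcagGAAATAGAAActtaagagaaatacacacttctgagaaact
IFI27 (chr14:94110486-94110735, plus strand): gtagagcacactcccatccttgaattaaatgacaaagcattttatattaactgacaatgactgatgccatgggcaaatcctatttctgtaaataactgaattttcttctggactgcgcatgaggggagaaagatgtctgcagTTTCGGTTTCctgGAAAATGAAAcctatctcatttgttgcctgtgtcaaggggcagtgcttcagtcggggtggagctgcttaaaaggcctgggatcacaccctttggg
In ISG15 the 2 matches overlap, beginning at positions -113 and -107, where -1 is the base just before the start. IFIT3 had 2 separate matches and HERC5 had 3, and all of those carry the element on the opposite strand. IFI27 had 1 match in each orientation, and in the bases shown IFITM1 had 1 match, at position -40, of 2 in its whole window. The letters stood in members of each direction. Of the members with a window that fell with siTAZ in vehicle, 5 of 7 held them. Under erastin, 4 of 6 that rose and 2 of 3 that fell held them, and of members not called 16 of 23 held them in vehicle and 15 of 21 under erastin.

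Most members were well measured in RCC4 cells, and the labels mention no added interferon. A mean signal above the dim limit in at least 1 group was found for 34 of 38 members. The exceptions were the antiviral GTPases MX1 (mean of 12 arrays 5.05) and MX2 (4.43), the oligoadenylate synthetase OAS2 (4.27) and the antiviral enzyme RSAD2, also called viperin (4.46). These 4 get no fold change. The brightest were the virus entry inhibitor IFITM3 (12.1, above 97.1% of genes), its close relative IFITM2 (11.04), the immunoproteasome subunits PSMB9 (10.98) and PSMB8 (10.8) and the ubiquitin ligase TRIM22 (10.8). IFITM1, IFITM2 and IFITM3 are near-identical in sequence and sit on probe sets marked as shared or cross-hybridising, so their signals may contain each other. Signals of different probe sets are not on a common scale, and each gene is compared only with itself from here on.

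**Figure D1:**
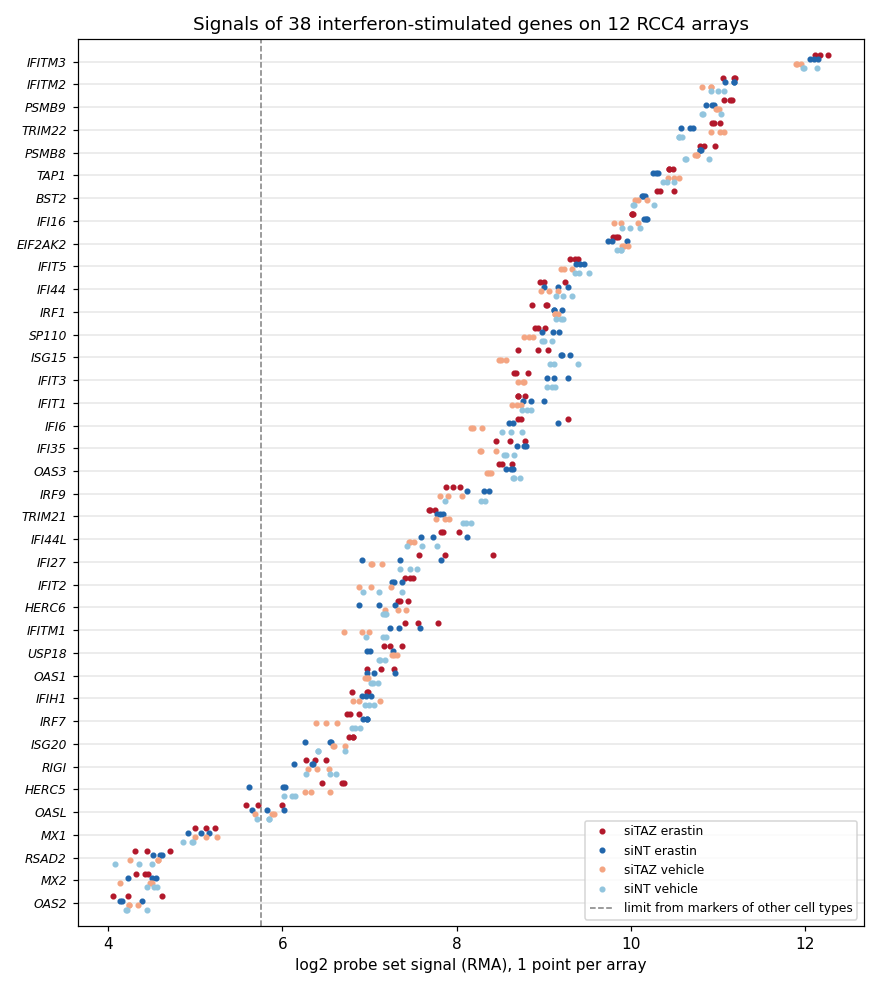
Log2 signals of the 38 members on the 12 arrays, 1 point per array, coloured by group, with members ordered by their mean and the dim limit of 5.75 as a dashed line. MX1, MX2, OAS2 and RSAD2 lie left of the line on all arrays, and within most members the groups differ by little against the distance between members.

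In vehicle, single members of the list changed with siTAZ, more of them downward than upward. Limma called 8 of 38 members as fallen, against 13.9% of all genes, and 1 as risen, against 14.7% of all genes. Calls in either direction came to 9 of 38 members (23.7%), against 28.6% of all genes, so being called was not more frequent among members than elsewhere on the array. The median change of members was -0.09 on the log2 scale, against -0.01 over all genes, and 26 members had a negative and 12 a positive change. The arrays of the groups did not overlap for 13 members that were lower in siTAZ cells (22.4% of all genes were lower in this way) and for 5 that were higher (21.4% of all genes). The list of members was chosen with earlier results of these data known. Of 24 further interferon-stimulated genes outside it, 5 rose (20.8%) and 2 fell (8.33%) in the same comparison, so the direction depended on the list.

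ISG15 is the ubiquitin-like protein that interferon induces and that is attached to other proteins. Its signals were 8.51, 8.49 and 8.56 on siTAZ vehicle arrays, against 9.07, 9.12 and 9.39 on siNT vehicle arrays. All siTAZ arrays lay below all siNT arrays, a 1.59-fold lower signal in siTAZ cells (log2 change -0.67 ± 0.09, limma adjusted p = 0.000184). It was the largest fall among the members.

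IFIT3 binds and stabilises IFIT1, which holds viral RNA back from translation. Its signals were 8.76, 8.70 and 8.78 on siTAZ vehicle arrays, against 9.10, 9.13 and 9.03 on siNT vehicle arrays, without overlap. The log2 change was -0.34 ± 0.07 (limma adjusted p = 0.00253). Its relatives changed by -0.17 ± 0.06 for IFIT5 (adjusted p = 0.044), -0.12 ± 0.07 for IFIT1 (0.223) and -0.08 ± 0.11 for IFIT2 (0.648), so IFIT3 and IFIT5 fell and IFIT1 and IFIT2 did not pass the test. A second probe set of IFIT5 with a similar mean signal (9.27, against 9.36) gave -0.05 and was not called. With every probe set fitted on its own, the brightest one of IFIT5 was not called either (limma adjusted p = 0.06).

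The transcription factor IRF7 amplifies interferon production after the first wave. Its signals were 6.38, 6.63 and 6.5 on siTAZ vehicle arrays, against 6.80, 6.89 and 6.83 on siNT vehicle arrays, and it fell by 0.33 ± 0.07 on the log2 scale (adjusted p = 0.00204). IRF9 had a change of -0.23 ± 0.12 (adjusted p = 0.178) and IRF1, an early activator of antiviral and antigen presentation genes, of -0.05 ± 0.06 (0.628). Among the 3 interferon regulatory factors in the list, IRF7 was thus the one called in vehicle.

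OAS3 makes the short 2′-5′ oligoadenylates that activate RNase L when it binds double-stranded RNA. It had 8.34, 8.39 and 8.37 on siTAZ vehicle arrays, against 8.66, 8.73 and 8.65 on siNT vehicle arrays, a change of -0.31 ± 0.05 (adjusted p = 0.000875). OAS1 changed by -0.09 ± 0.09 (adjusted p = 0.549) and OASL, which lacks the synthetase activity, by 0.02 ± 0.11 (0.916). The other sensors of double-stranded RNA in the list did not pass the test, with RIGI at -0.07 ± 0.10, IFIH1 at -0.06 ± 0.08 and the translation-blocking kinase EIF2AK2 at 0.06 ± 0.06.

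TRIM21, a cytosolic antibody receptor and ubiquitin ligase, had 7.86, 7.92 and 7.76 on siTAZ vehicle arrays, against 8.11, 8.07 and 8.17 on siNT vehicle arrays. It fell by 0.27 ± 0.06 (adjusted p = 0.00273). IFI35, a partner of NMI, fell by 0.26 ± 0.08 (adjusted p = 0.0322) and the nuclear body protein SP110 by 0.20 ± 0.06 (adjusted p = 0.0296). These were small changes, of 1.15-fold to 1.24-fold together with that of OAS3. A dimmer probe set of SP110 gave -0.29 and was called as well, while others gave -0.08 and -0.11 and were not called.

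TRIM22 was the member called in the other direction. It had 11.06, 10.92 and 11.02 on siTAZ vehicle arrays, against 10.55, 10.55 and 10.58 on siNT vehicle arrays, a change of 0.44 ± 0.06 (1.36-fold higher, adjusted p = 8.92e-05). HERC5, the main ligase that attaches ISG15 to proteins in human cells, had 6.26, 6.33 and 6.55 on siTAZ vehicle arrays, against 6.11, 6.02 and 6.14 on siNT vehicle arrays, without overlap but with an adjusted p of 0.0793 (change 0.29 ± 0.11). ISG15 and its ligase thus had changes of opposite sign in the same cells, of which the fall of ISG15 passed the test.

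A pair of members with large changes did not pass. IFI6, which limits cell death and viral replication, had 8.17, 8.19 and 8.29 on siTAZ vehicle arrays, against 8.62, 8.75 and 8.52 on siNT vehicle arrays (change -0.42 ± 0.16, adjusted p = 0.0733). IFI27, a small mitochondrial protein, had 7.02, 7.03 and 7.15, against 7.35, 7.54 and 7.46 in the same groups (change -0.39 ± 0.22, adjusted p = 0.229). Neither overlapped between its vehicle groups, while the error of the fit also takes in the wide spread of their erastin arrays described below. Among the alternative ways of processing, IFI6 was called as fallen under 7 and IFI27 under 1.

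The calls of ISG15, IFIT3, IRF7, OAS3, TRIM21 and TRIM22 in vehicle held under every alternative that was run for them, including each array left out in turn. The calls of IFI35, IFIT5 and SP110 did not. IFI35 was lost without any 1 of the 6 arrays other than siTAZ vehicle array 2 (adjusted p 0.0546 to 0.116). IFIT5 was lost without siNT vehicle arrays 2 or 3 or siTAZ vehicle arrays 1 or 3 (0.0674 to 0.175), and SP110 without siNT vehicle arrays 1 or 3 or siTAZ vehicle arrays 1 or 3 (0.0606 to 0.108). With siTAZ vehicle array 1 or array 3 left out, 5 members fell.

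**Figure D2:**
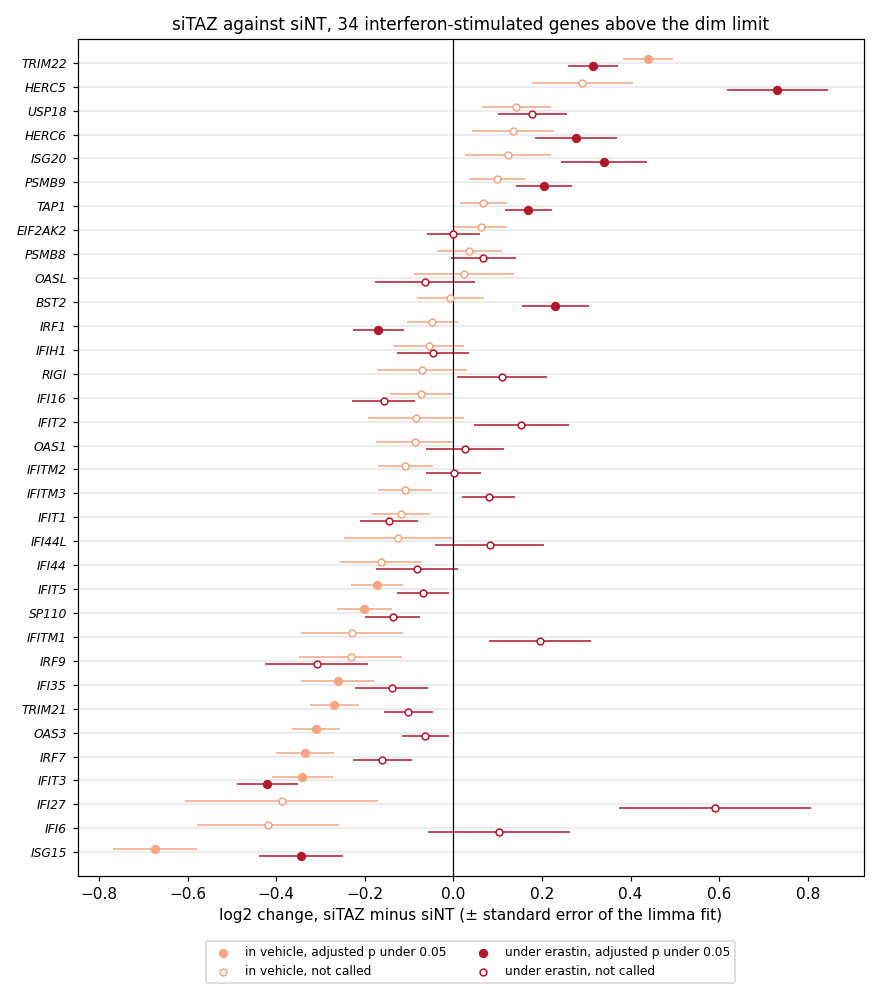
Log2 change of siTAZ over siNT with its standard error for the 34 members above the dim limit, in vehicle (pale) and under erastin (dark), with filled points for an adjusted p under 0.05. ISG15 and IFIT3 lie left of 0 and TRIM22 right of 0 with filled points in both media, and HERC5 reaches 0.73 under erastin.

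Under erastin 7 of 38 members rose with siTAZ, against 15.6% of all genes, and 3 fell, against 12.6% of all genes. In total 10 of 38 members were called (26.3%), against 28.2% of all genes. With each array centred on its median, 4 rose and 6 fell. The median change was 0.014, against 0.0057 over all genes. The arrays did not overlap for 8 members that were higher (21.1% of all genes) and 7 that were lower in siTAZ cells (17.7% of all genes).

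HERC5 had the largest change. Its signals were 6.70, 6.45 and 6.69 on siTAZ erastin arrays, against 6.0, 5.62 and 6.03 on siNT erastin arrays, without overlap. It rose by 0.73 ± 0.11 on the log2 scale (1.66-fold, limma adjusted p = 0.000409). HERC6, its close relative and the ISG15 ligase of mice, had 7.35, 7.33 and 7.44 against 7.11, 6.88 and 7.29 and rose by 0.28 ± 0.09 (adjusted p = 0.0414). USP18, the protease that removes ISG15 and dampens the interferon receptor, had a change of 0.18 ± 0.08 (adjusted p = 0.117).

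ISG15 itself was lower in siTAZ cells here too. It had 8.70, 8.93 and 9.04 on siTAZ erastin arrays, against 9.20, 9.20 and 9.30 on siNT erastin arrays, and it fell by 0.34 ± 0.09 (adjusted p = 0.0168). IFIT3 had 8.66, 8.68 and 8.82, against 9.04, 9.11 and 9.28 in the same groups, and fell by 0.42 ± 0.07 (adjusted p = 0.000619). For both genes all siTAZ arrays again lay below all siNT arrays.

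TRIM22 had 10.93, 11.02 and 10.95 on siTAZ erastin arrays, against 10.58, 10.71 and 10.68 on siNT erastin arrays, a rise of 0.32 ± 0.06 (adjusted p = 0.00114). ISG20, an exonuclease that degrades single-stranded RNA, had 6.76, 6.80 and 6.81, against 6.25, 6.56 and 6.55, a rise of 0.34 ± 0.10 (adjusted p = 0.0203), and its second probe set gave 0.44 and was called as well. BST2, or tetherin, which holds budding virus at the cell surface, rose by 0.23 ± 0.08 (adjusted p = 0.0393). All 3 had groups that did not overlap.

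Of the 3 members that serve antigen presentation, PSMB9 and TAP1 passed the test. PSMB9 had 11.06, 11.14 and 11.16 on siTAZ erastin arrays, against 10.93, 10.86 and 10.95 on siNT erastin arrays, and rose by 0.20 ± 0.06 (adjusted p = 0.0289). The peptide transporter subunit TAP1 rose by 0.17 ± 0.05 (adjusted p = 0.0322), and PSMB8 had a change of 0.07 ± 0.07 (0.576). IRF1 was called as fallen, by 0.17 ± 0.06 (adjusted p = 0.0478), and IRF9 had a change of -0.31 ± 0.12 (adjusted p = 0.0707). IFI27 had 7.57, 7.87 and 8.42 on siTAZ erastin arrays, against 7.35, 6.91 and 7.82 on siNT erastin arrays, so the groups overlapped and its change of 0.59 ± 0.22 did not pass (adjusted p = 0.0633). IFI27 was called as risen and IRF9 as fallen under 7 alternatives each.

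The calls of HERC5, TRIM22 and IFIT3 under erastin held under every alternative that was run for them. ISG15 lost its call without siNT erastin array 3 or siTAZ erastin array 1 (adjusted p 0.052 to 0.0724), and ISG20 without siNT erastin array 1 or siTAZ erastin arrays 2 or 3 (0.0561 to 0.0843). PSMB9 lost it without siNT erastin arrays 1 or 2 or siTAZ erastin arrays 2 or 3 (0.0566 to 0.0926). BST2, HERC6, IRF1 and TAP1 each lost it on leaving out 5 of the 6 arrays 1 at a time, with adjusted p from 0.0623 to 0.153 for BST2, 0.0677 to 0.146 for HERC6, 0.0625 to 0.192 for IRF1 and 0.0625 to 0.096 for TAP1. The array whose loss kept the call was siTAZ erastin array 1 for BST2, siNT erastin array 3 for HERC6, siTAZ erastin array 3 for IRF1 and siNT erastin array 1 for TAP1. The number that rose was 2 without siTAZ erastin array 2 or array 3 and 3 without siNT erastin array 1 or array 2, and the number that fell was 1 without siTAZ erastin array 1. The 3′ minus 5′ signal of the actin control probe sets is a measure of RNA integrity and labelling. It was 3.25 ± 0.33 on siTAZ erastin arrays, against 2.26 ± 0.69 on siNT erastin arrays (log2, SD, n = 3 each). The GAPDH control probe sets hardly differed, with 0.20 ± 0.06 and 0.15 ± 0.08 in the same groups. With the actin measure as a covariate the calls of ISG15 (change -0.39, adjusted p = 0.0744), ISG20 (0.39, 0.0799) and PSMB9 (0.17, 0.211) were lost. So were those of BST2 (0.19, 0.253), TAP1 (0.15, 0.176) and IRF1 (-0.05, 0.629), and IFIT3 kept its call at a change of -0.27 (0.0332). With arrays centred on their medians those of BST2, PSMB9 and TAP1 were lost (0.106, 0.0969 and 0.0863). In a fit of the 2 erastin groups alone BST2, HERC6, IRF1, TAP1 and PSMB9 lost theirs (adjusted p 0.0513 to 0.144).

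The siTAZ comparisons in vehicle and under erastin share no arrays. TRIM22 rose in both, ISG15 and IFIT3 fell in both, and no member was called in opposite directions. A further 6 members were called in vehicle alone and 7 under erastin alone, against 878 and 828 of all 11963 genes. Of the 38 members 2.63% rose and 5.26% fell in both, against 11.7% and 9.56% of all genes, so calls of members were shared between media less often. Over all genes 2 were called in opposite directions. The change had the same sign in both media for 25 of 38 members (65.8%), against 73.9% of all genes. Whether a change with siTAZ differs between the media is the interaction, given below.

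**Figure D3:**
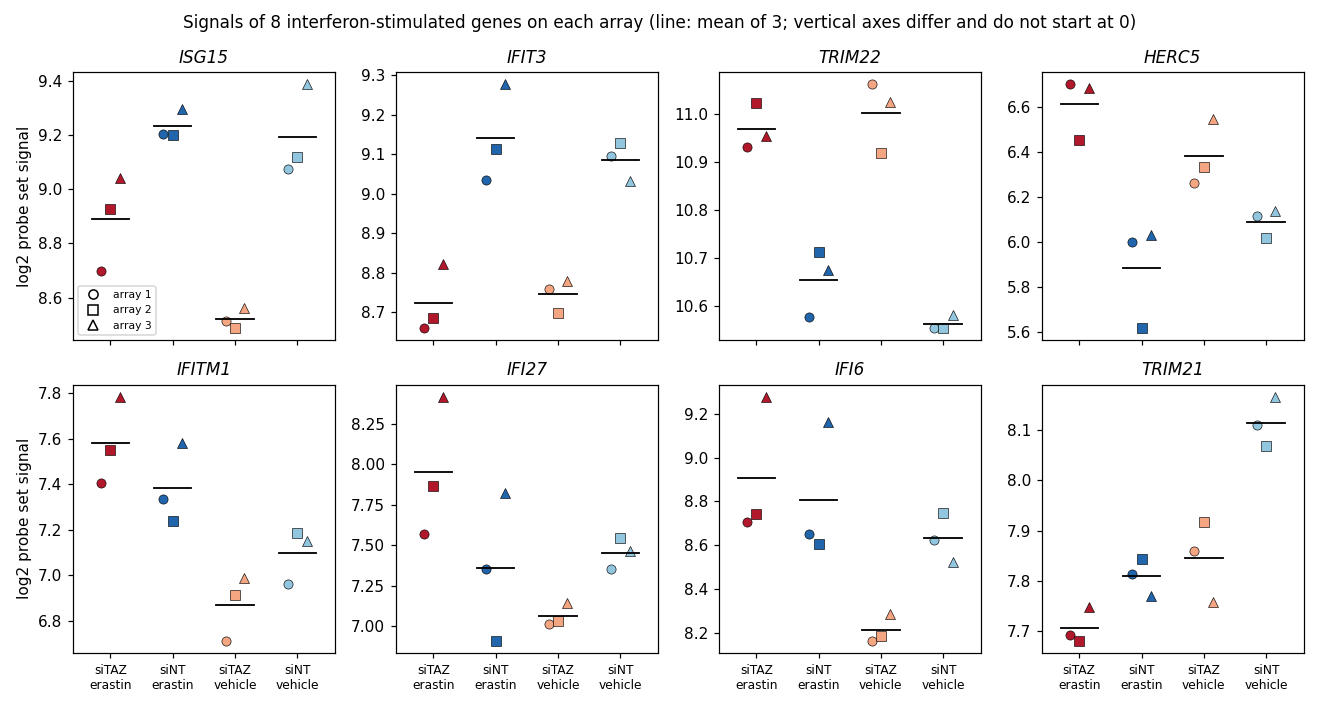
Log2 signals of 8 members on each array, with siTAZ erastin, siNT erastin, siTAZ vehicle and siNT vehicle from left to right, marker shapes for the array number and a line at the mean of 3 arrays; vertical axes differ and do not start at 0. ISG15 and IFIT3 are lower and TRIM22 higher on siTAZ arrays in each medium, and array 3 is the highest of both erastin groups for IFI6, IFI27 and IFITM1.

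Erastin at 7 h changed few genes at all, and few members. In siNT cells 1 of 38 members fell, against 0.276% of all genes, and 0 rose, against 0.527% of all genes (0.802% were called in either direction). At an unadjusted limma p under 0.05, 3 members (7.89%) were higher, against 4.33% of all genes, and 2 (5.26%) lower, against 6.08%. The member that fell was TRIM21, with 7.81, 7.84 and 7.77 on siNT erastin arrays, against 8.11, 8.07 and 8.17 on siNT vehicle arrays (change -0.31 ± 0.06, adjusted p = 0.0281). Its groups did not overlap, but the call was lost on leaving out any 1 of the 6 arrays (adjusted p 0.0582 to 0.11, change -0.33 to -0.28). The same comparison in siTAZ cells gave -0.14 ± 0.06 for TRIM21 (adjusted p = 0.44). ISG15 in siNT cells changed by 0.04 ± 0.09 and IFIT3 by 0.06 ± 0.07.

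In siTAZ cells erastin raised IFITM1, an inhibitor of virus entry at the plasma membrane. It had 7.41, 7.55 and 7.79 on siTAZ erastin arrays, against 6.71, 6.91 and 6.99 on siTAZ vehicle arrays, a change of 0.71 ± 0.12 (1.64-fold, limma adjusted p = 0.0156). This was 1 of 38 members, against 0.46% of all genes that rose, and 0 members fell, against 0.1% of all genes (0.56% were called in either direction). At an unadjusted p under 0.05, 12 members (31.6%) were higher, against 5.75% of all genes, and 2 (5.26%) lower, against 4.45%. The IFITM1 call was lost without siTAZ vehicle arrays 1 or 2 or siTAZ erastin arrays 2 or 3 (adjusted p 0.0552 to 0.094, change 0.61 to 0.73). In siNT cells IFITM1 changed in the same direction with erastin, by 0.29 ± 0.12, which did not pass the test (limma adjusted p = 0.399). All siNT erastin arrays lay above all siNT vehicle arrays for this gene.

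Several members had larger or similar changes without passing the test. IFI27 had 7.57, 7.87 and 8.42 on siTAZ erastin arrays, against 7.02, 7.03 and 7.15 on siTAZ vehicle arrays (change 0.89 ± 0.22, 95% interval 0.41 to 1.36, adjusted p = 0.135). IFI6 had 8.71, 8.74 and 9.28, against 8.17, 8.19 and 8.29 in the same groups (change 0.69 ± 0.16, adjusted p = 0.109). Neither gene overlapped between its groups, and in each erastin array 3 lay well above the other two.

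Changes of 0.42 ± 0.12 for IFI44L, 0.40 ± 0.11 for IFIT2, 0.37 ± 0.09 for ISG15 and 0.29 ± 0.07 for IRF7 also had groups that did not overlap, with adjusted p from 0.103 for IRF7 to 0.257 for IFI44L. In all, 16 of 38 members were higher on every siTAZ erastin array than on any siTAZ vehicle array, against 10.9% of all genes, and 3 were lower, against 9.81%. In siNT cells these counts were 6 higher, against 5.92% of all genes, and 3 lower, against 8.52%, of which OAS3 was separated by 0.0011 on the log2 scale. The median change of members with erastin was 0.09 in siTAZ cells, against 0.01 over all genes, and 0.04 in siNT cells, against 0.00 over all genes.

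Signals of the members were uneven within groups. Of the 3 arrays of its group, siTAZ erastin array 3 was the highest for 26 of 38 members, against 41.4% of all genes, siNT erastin array 3 for 19 of 38, against 34.9%, and siTAZ vehicle array 2 for 19 of 38, against 37.0%. In counts chosen after seeing the data, without siTAZ erastin array 3, 16 members did not overlap upward with vehicle, against 16.2% of all genes for 2 arrays against 3. Leaving out an array cannot lower such a count, so it does not test the part of array 3. The median change of members without that array was 0.09. Without siNT erastin array 3, 7 members were higher and 9 lower in siNT cells, against 13.6% and 15.4% of all genes. The actin 3′ minus 5′ signal was 3.25 ± 0.33 on siTAZ erastin arrays, against 2.65 ± 0.04 on siTAZ vehicle arrays, and 2.26 ± 0.69 on siNT erastin arrays, against 2.68 ± 0.28 on siNT vehicle arrays (log2, SD, n = 3 each). The lowest value, 1.49, was that of siNT erastin array 3. The GAPDH control gave 0.20 ± 0.06 on siTAZ erastin arrays, against 0.20 ± 0.07 on siTAZ vehicle arrays. It gave 0.15 ± 0.08 on siNT erastin arrays, against 0.18 ± 0.07 on siNT vehicle arrays. With the actin measure as a covariate, IFITM1 changed by 0.78 in siTAZ cells (adjusted p = 0.0416) and IFI6 by 0.92 (adjusted p = 0.0293). Without both erastin arrays of number 3, also chosen after seeing the data, the change was 0.61 for IFITM1 (adjusted p = 0.0279) and 0.51 for IFI6 (adjusted p = 0.0138). Array 3 was the highest of both erastin groups for these 2 genes. Leaving it out therefore narrows their spread, so these p-values do not test its part.

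**Figure D4:**
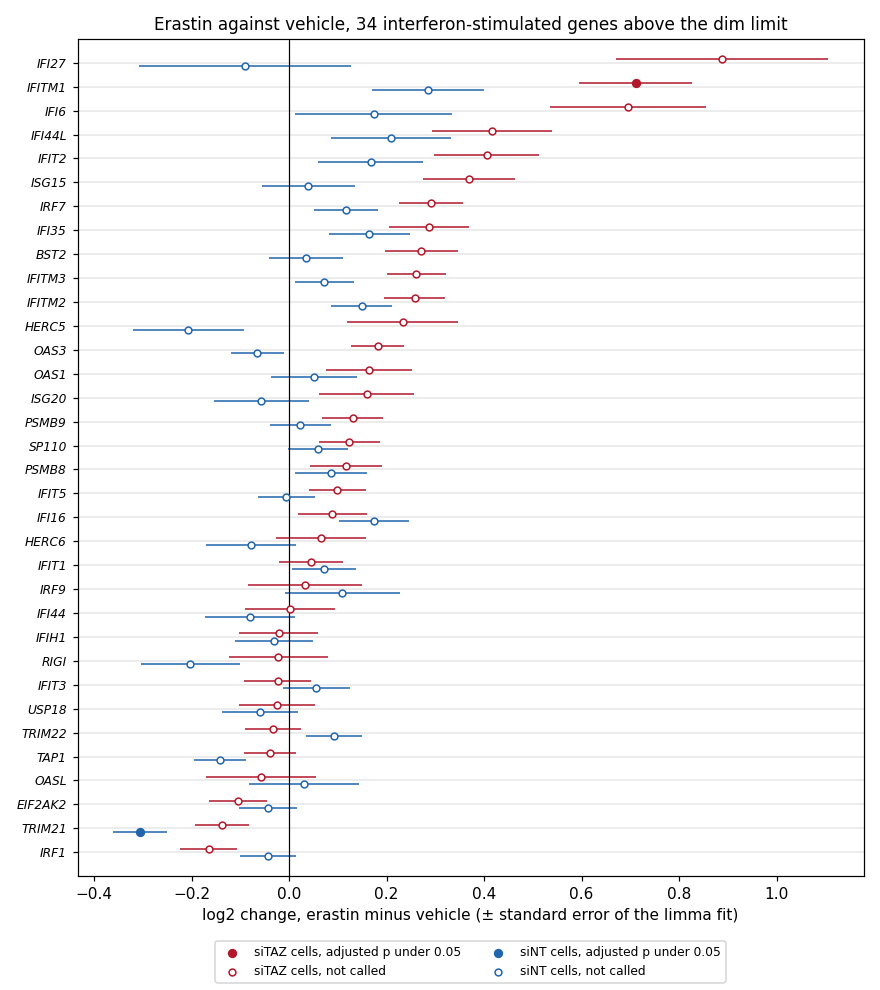
Log2 change of erastin over vehicle with its standard error for the 34 members above the dim limit, in siTAZ cells (red) and siNT cells (blue), with filled points for an adjusted p under 0.05. IFITM1 in siTAZ cells and TRIM21 in siNT cells are the filled points, and IFI27 and IFI6 lie at 0.89 and 0.69 in siTAZ cells with wide errors.

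The test of whether the erastin response differed between siTAZ and siNT cells called no member, and 0% of all genes. At an unadjusted limma p under 0.05, 8 members (21.1%) had a higher response in siTAZ cells, against 3.98% of all genes, and 0 a lower one, against 2.41%. The estimate was positive for 28 and negative for 10 members, with a median of 0.11, against 0.02 over all genes. The largest was IFI27, with a response of 0.89 in siTAZ cells and -0.09 in siNT cells, a difference of 0.98 ± 0.31 (95% interval 0.31 to 1.65, adjusted p = 0.77). The differences of IFI6 (0.52 ± 0.23), HERC5 (0.44 ± 0.16), IFITM1 (0.42 ± 0.16), ISG15 (0.33 ± 0.13) and OAS3 (0.25 ± 0.08) had the same adjusted p of 0.77. This value is also the test of whether the change with siTAZ differed between erastin and vehicle, so the calls of HERC5 under erastin alone and of OAS3 in vehicle alone are not shown to differ between media.

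The rest of the pathway was read from lists of genes around the members. All 11 interferon ligands measured were under the dim limit in every group. At those levels limma called IFNA2 as fallen with siTAZ in vehicle (adjusted p = 0.034) and IFNB1 as risen with siTAZ under erastin (adjusted p = 0.0328). IFNB1, the first interferon most cells make, had 3.49, 3.63 and 3.73 on siTAZ erastin arrays, 3.32, 3.35 and 3.39 on siNT erastin arrays, 3.27, 3.35 and 3.55 on siTAZ vehicle arrays and 3.13, 3.32 and 3.28 on siNT vehicle arrays. These are levels at which the marker genes of other cell types also lie, and no fold is given.

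Of 12 receptor and signalling genes, 16.7% were called with siTAZ in vehicle and 8.33% under erastin, against 28.6% and 28.2% of all genes. IFNAR2 rose with siTAZ in both media, by 0.18 ± 0.06 in vehicle and 0.33 ± 0.06 under erastin (limma adjusted p = 0.0395 and 0.00102). TYK2 fell in vehicle by 0.22 ± 0.07 (adjusted p = 0.0289), and no other gene of the list was called in these comparisons. With erastin no gene of the list was called in siTAZ or siNT cells, while at an unadjusted p under 0.05 there was 1 lower in each.

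Of 14 RNA and DNA sensing genes, 2 rose and 2 fell with siTAZ in vehicle (28.6% called, against 28.6% of all genes). IKBKE, a kinase that phosphorylates IRF3 and IRF7, had 7.62, 7.63 and 7.49 on siTAZ vehicle arrays, against 8.13, 8.09 and 8.17 on siNT vehicle arrays. It fell by 0.55 ± 0.07 in vehicle (adjusted p = 8.62e-05) and by 0.38 ± 0.07 under erastin (adjusted p = 0.00136). IRF5 rose by 0.32 ± 0.10 in vehicle and 0.39 ± 0.10 under erastin, while MAVS, the adaptor of RIGI and IFIH1, rose by 0.25 ± 0.07 and TLR3 fell by 0.20 ± 0.05 in vehicle. Under erastin 2 genes rose and 1 fell (21.4%, against 28.2% of all genes), and the riser besides IRF5 was TLR8, whose signals were under the dim limit.

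Among 9 genes that handle siRNA and double-stranded RNA, AGO3, an Argonaute protein, rose with siTAZ by 0.47 ± 0.11 in vehicle and 0.39 ± 0.11 under erastin. The enzyme DICER1 fell by 0.17 ± 0.06 and 0.26 ± 0.06, its partner TARBP2 by 0.24 ± 0.06 and 0.23 ± 0.06 and the silencing scaffold TNRC6B by 0.29 ± 0.08 and 0.27 ± 0.08 in vehicle and under erastin. The count was 1 risen and 3 fallen in vehicle (44.4% called, against 28.6% of all genes) and 1 risen and 4 fallen under erastin (55.6%, against 28.2%).

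Of 15 inflammatory genes that RNA sensing can also switch on through NF-kB, 4 rose and 4 fell with siTAZ in vehicle, and 5 rose and 3 fell under erastin (53.3% called in each medium, against 28.6% and 28.2% of all genes). IL6 fell by 0.93 ± 0.06 in vehicle and 0.79 ± 0.06 under erastin, and the neutrophil chemokine CXCL1 by 0.89 ± 0.07 and 0.92 ± 0.07. The monocyte chemokine CCL2 rose by 0.61 ± 0.12 and 0.86 ± 0.12, and the NF-kB inhibitor TNFAIP3 by 0.37 ± 0.05 and 0.49 ± 0.05. CXCL10, a chemokine that interferon induces strongly, was under the dim limit in both vehicle groups, and its call is 1 of the 4 rises there. With erastin in siNT cells 0 of the 15 were called. At an unadjusted limma p under 0.05, 8 were lower and 1 higher there, against 6.08% and 4.33% of all genes. The arrays did not overlap for 8 that were lower (53.3%, against 8.52% of all genes), and the median change was -0.16. In siTAZ cells CXCL8 was called as fallen with erastin (6.67% of the list, against 0.1% of all genes).

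Of 15 further class I presentation genes, 5 rose and 1 fell with siTAZ in vehicle (40% called, against 28.6% of all genes), and 1 rose and 1 fell under erastin (13.3%, against 28.2%). HLA-B had 13.09, 13.06 and 13.08 on siTAZ vehicle arrays, against 12.87, 12.84 and 12.76 on siNT vehicle arrays (change 0.25 ± 0.06, adjusted p = 0.00974), and HLA-F rose by 0.27 ± 0.06. Class I genes are close in sequence and probe sets may read more than 1 of them. TAP2, the partner of TAP1, fell by 0.56 ± 0.05 in vehicle and 0.46 ± 0.05 under erastin, where TAP1 rose by 0.17. Among 9 genes of interferon gamma and class II presentation, HLA-DMA rose by 0.76 ± 0.07 and 0.78 ± 0.07 and HLA-DRB1 by 0.35 ± 0.08 and 0.50 ± 0.08 in vehicle and under erastin, and 6 of the 9 were under the dim limit. The 2 called made 22.2% of this list in each medium, against 28.6% and 28.2% of all genes.

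Of 24 further interferon-stimulated genes outside the list of members, 5 rose and 2 fell with siTAZ in vehicle (29.2% called, close to the 28.6% of all genes) and 6 rose and 3 fell under erastin (37.5%, against 28.2%). TNFSF10, the death ligand TRAIL, had 10.92, 10.92 and 11.01 on siTAZ vehicle arrays, against 10.46, 10.42 and 10.37 on siNT vehicle arrays, and rose by 0.53 ± 0.06 in vehicle and 0.40 ± 0.06 under erastin. The nucleotide hydrolase SAMHD1 rose by 0.45 ± 0.09 and 0.66 ± 0.09, and NMI, the partner of IFI35, by 0.34 ± 0.06 and 0.38 ± 0.06. The nuclear body protein SP100 fell by 0.48 ± 0.05 and 0.50 ± 0.05. With erastin in siTAZ cells, APOL6 rose by 0.43 ± 0.07 (adjusted p = 0.0156) and TNFSF10 fell by 0.34 ± 0.06 (adjusted p = 0.0354), and no gene of this list was called in siNT cells, where 2 were higher and 3 lower at an unadjusted p under 0.05.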

How the data were processed

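RNA of RCC4 cells was measured on 12 arrays, 3 in each of 4 groups taken from the sample titles; the submitters describe biological triplicates. The deposited values are log2 probe set signals, which the authors obtained by RMA in Affymetrix Expression Console according to the submitters' processing notes; software versions and the build of the genome are not given in the sources used. Median signals of the arrays were 6.48 to 6.54. Of 22277 probe sets, those not used were 62 controls, 1043 for several genes and 2108 with no gene listed; 19064 covered 11963 genes, each read from its brightest probe set. Of the members, 10 had more than 1 probe set.

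All 12 arrays entered 1 fit with a mean per group in limma 3.58.1 (R 4.3.3; 8 residual and 3.90 prior degrees of freedom). Adjustment was by Benjamini-Hochberg over all genes in each comparison, and an adjusted p under 0.05 made a call; errors are standard errors of the fit and intervals are 95% intervals. For a single gene, 3 arrays per group limit an exact permutation test to a p of 0.1 or more, so none was made. The number of arrays limits the precision.

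Every member could be named, WWTR1 as the check of silencing, and from each pathway list up to 4 genes per comparison with the largest called changes or those a role required. Genes under the dim limit in both groups got no fold change. The members and lists were chosen with earlier results of these data known. Alternatives covered normalisation, filters on dim genes, probe set choice, variance model, arrays in the fit, replicate number, RNA quality and each array left out in turn. Promoter sequences are from RefSeq (GRCh38.p14), matched by symbol.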

Additional observations from a re-analysis of the deposited data

Results flagged for a closer look

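OAS3 had estimates of opposite sign for erastin in the 2 kinds of cells, neither of which passed its own test. Its signals were 8.49, 8.52 and 8.64 on siTAZ erastin arrays, against 8.34, 8.39 and 8.37 on siTAZ vehicle arrays (change 0.18 ± 0.05, limma adjusted p = 0.257). They were 8.57, 8.65 and 8.62 on siNT erastin arrays, against 8.66, 8.73 and 8.65 on siNT vehicle arrays (change -0.07 ± 0.05, adjusted p = 0.773). The siNT groups were separated by 0.0011 on the log2 scale, less than the spread within either group. The difference between the responses was 0.25, with an adjusted p of 0.77, so it did not pass the test over all genes.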

How the results depend on the processing

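No call of a member turned its direction under any alternative. With siTAZ in vehicle, 8 members fell (6 to 10 under the alternatives on all arrays, 5 to 8 with 1 array left out) and 1 rose, but 4 rose with array weights, 2 in a fit of the compared groups alone, 2 with the replicate number as a block and 1 to 2 with 1 array left out. With siTAZ under erastin, 7 rose (4 with arrays centred on their medians, 3 in a fit of the compared groups alone, 4 with the actin measure as a covariate, 9 with array weights, 2 to 7 with 1 array left out) and 3 fell (6 with centring, 5 with a second quantile normalisation, 1 with the actin covariate, 1 to 3 with 1 array left out). For erastin in siNT cells the 1 member that fell became 0 with a second quantile normalisation, the compared groups alone, the replicate block, the actin covariate and any array left out, and also without both erastin arrays of number 3, an alternative chosen after seeing the data. For erastin in siTAZ cells the 1 member that rose became 5 without genes under the 50th percentile, 7 with the trend and robust settings, 4 with array weights, 2 with the actin covariate, 2 without both arrays of number 3, 0 with the compared groups alone and 0 to 1 with 1 array left out. The interaction called 0 members throughout. With the block, the calls of BST2, HERC6, IRF1 and TAP1 under erastin had adjusted p of 0.0508 to 0.075. The causes of these shifts were not tested. Over all genes, calls ranged from 2809 to 4325 for siTAZ in vehicle (3419 in the fit reported), 2535 to 4022 under erastin (3369), 15 to 324 for erastin in siNT cells (96), 30 to 166 in siTAZ cells (67) and 0 to 10 for the interaction (0). The replicate numbers did not pair the arrays in every comparison. In deviations from group means, same-numbered arrays correlated at -0.05 to 0.17 between the vehicle groups and -0.05 to 0.36 between the erastin groups. The correlation was -0.42 to -0.07 between erastin and vehicle in siNT cells and -0.18 to -0.01 in siTAZ cells. The best match had the same number for siTAZ arrays 2 and 3 under erastin (0.36 and 0.30) and array 2 in vehicle. Between erastin and vehicle the best match never had the same number.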
